A study of Homo sapiens with 16 samples.

Results

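The 10 genes described here encode the RB family of pocket proteins (RB1, RBL1 and RBL2), the 5 subunits of the MuvB core (LIN9, LIN37, LIN52, LIN54 and RBBP4) and the activating factors MYBL2 and FOXM1 that work with this core. They were taken by gene symbol, with no threshold on a measured value, from 23396 genes in any of 4 tables in which the authors compared groups of libraries, and all 10 had a row in each table. The libraries were poly(A) RNA-seq of U2OS, a human osteosarcoma cell line that keeps wild-type p53. The series addressed the transcriptome regulated by RFX7, a transcription factor known to act downstream of p53. Cells had been transfected with a control siRNA (siControl) or with a siRNA against RFX7 (siRFX7). Each was then treated for 24 h with 10 µM Nutlin-3a, which frees p53 from its inhibitor MDM2, or with the solvent DMSO. The 4 resulting groups, siControl with DMSO, siControl with Nutlin-3a, siRFX7 with DMSO and siRFX7 with Nutlin-3a, had 4 libraries each, 16 in all. The labels do not say whether the libraries of a group came from separate cultures, so the p-values measure the spread between these libraries.

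Pocket proteins bind E2F transcription factors while they carry few phosphates and release them when cyclin-dependent kinases phosphorylate them. RB1 mainly holds the activating E2Fs, whereas RBL1 (p107) and RBL2 (p130) join a repressor E2F, its DP partner and the MuvB core to form the DREAM complex, which keeps cell cycle genes silent in resting or arrested cells. In dividing cells the same MuvB core leaves the pocket proteins and binds MYBL2 (B-MYB), giving the MMB complex, which later recruits FOXM1 and switches on genes for mitosis. Activated p53 is known to raise the kinase inhibitor p21, the product of CDKN1A, and so to shift cells towards DREAM. These switches act through phosphorylation and assembly of proteins, which RNA levels do not measure.

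The tables held the authors' log2 fold changes with their standard errors (SE) and no value of a single library. Their base mean is a gene's normalised read count averaged over both groups, and over all genes it added up to between 27946376 and 35311111 per table. Each group's mean was therefore worked out from the base mean and the fold change and placed on the scale of the table for Nutlin-3a in siControl, and these levels carry no error of their own. The pair of tables that hold a group gave the same level to within 0.0065 on the log2 scale for 99% of 12747 genes. The direction of each comparison was set from RFX7, CDKN1A and MDM2, so the signs of these genes do not check it. The authors' deposited tables placed RFX7 at 18.6% of the siControl level under DMSO and at 19.4% under Nutlin-3a, so part of its RNA was left. CDKN1A and MDM2, direct targets of p53, rose with Nutlin-3a by 3.24 ± 0.04 (SE) and 2.89 ± 0.04 on the log2 scale in the siControl comparison of the authors' deposited tables. Of the markers of a mesenchymal or osteosarcoma line, VIM, SPARC and FN1 had base means of 84577, 31574 and 19572, whereas RUNX2 and COL1A2 had 432 and 13.2 (the authors' deposited table of that comparison).

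With Nutlin-3a in siControl cells, 8 of the 10 genes fell, RBL2 rose, and LIN37 did not pass the test. A gene was called at an adjusted p under 0.05 in the authors' DESeq2 Wald test. Over all genes, 19.6% were called lower and 18.3% higher. Where the base mean reached 100 or more, the shares were 31.6% and 24.7%. The median log2 fold change of the 10 genes was -0.58, against 0.01 over all genes. The falls were of unequal depth: MYBL2, LIN9 and RBL1 went down to between 51.0% and 53.6% of their DMSO level, LIN54 and FOXM1 to between 61.6% and 63.1%, RBBP4 and LIN52 to between 70.8% and 71.6%, and RB1 to 86.0%. In bulk RNA, fewer cells of a type and less RNA per cell cannot be told apart.

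**Figure D1:**
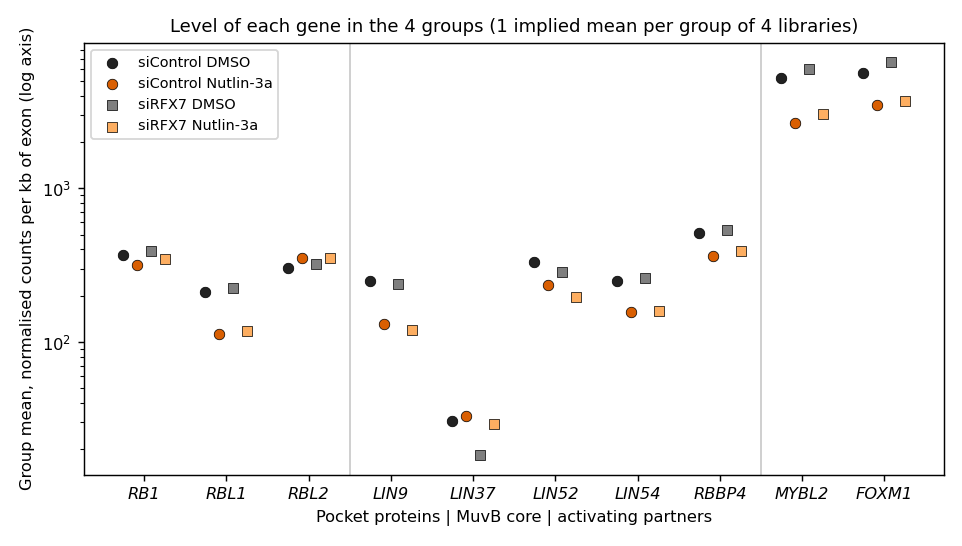
Mean level of each gene in the 4 groups, as normalised counts per kb of exon on a log axis, with 1 point per group of 4 libraries and no error bar because the tables hold no single library. MYBL2 and FOXM1 lie highest in all 4 groups, from 2672 upwards, LIN37 lies lowest in all 4, and the orange Nutlin-3a points lie below the black or grey DMSO points except for RBL2 and LIN37.

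The pocket proteins moved in opposite directions. RBL1, whose gene is itself a known E2F target, had 1250.5 normalised counts in siControl with DMSO, 670.8 in siControl with Nutlin-3a, 1332 in siRFX7 with DMSO and 703 in siRFX7 with Nutlin-3a. Its level was thus low in both Nutlin-3a groups and nearly the same under either siRNA. The authors' deposited table gave RBL1 a log2 fold change of -0.90 ± 0.06 (SE) with Nutlin-3a in siControl (DESeq2 adjusted p = 1.66e-44). RBL2, the pocket protein that predominates in resting cells, had 2212 normalised counts in siControl with DMSO, 2579.7 with Nutlin-3a, 2361 in siRFX7 with DMSO and 2579.0 with Nutlin-3a. RBL2 was highest in the Nutlin-3a groups, where the siControl and siRFX7 means were alike. By the authors' deposited table RBL2 rose by 0.22 ± 0.04 on the log2 scale in siControl (DESeq2 adjusted p = 1.16e-06). RB1, the founding tumour suppressor of the family, had 2388 normalised counts in siControl with DMSO, 2054 with Nutlin-3a, 2535 in siRFX7 with DMSO and 2225 with Nutlin-3a. Its fall in siControl was the shallowest of the called genes, at -0.22 ± 0.05 in the authors' deposited table (DESeq2 adjusted p = 1.88e-05).

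Of the MuvB core, 4 of 5 subunits fell. LIN9, which with LIN52 forms the docking site of MYBL2, had 1114 normalised counts in siControl with DMSO, 579.5 with Nutlin-3a, 1051 in siRFX7 with DMSO and 529 with Nutlin-3a, and its fold change in the authors' deposited table was -0.94 ± 0.07 in siControl (DESeq2 adjusted p = 6.35e-37). LIN54, which binds the CHR element in DNA, had 1682, 1061, 1752 and 1080.0 normalised counts in the same order of groups, and the authors' deposited table gave -0.67 ± 0.06 in siControl (DESeq2 adjusted p = 1.15e-28). Both genes had their 2 low values under Nutlin-3a, whichever siRNA was used. LIN52, whose phosphorylation by the kinase DYRK1A joins the core to the pocket proteins, had 1215, 859.9, 1056 and 728 normalised counts, and the authors' deposited table gave a fall by 0.50 ± 0.06 (DESeq2 adjusted p = 4.16e-18). RBBP4, a histone-binding chaperone that also serves several chromatin complexes, had 4814, 3445, 5099 and 3689 normalised counts, with -0.48 ± 0.04 in the authors' deposited table (DESeq2 adjusted p = 3.57e-33). LIN52 was lower in each siRFX7 group than in its siControl partner, whereas the RBBP4 means in siRFX7 lay above those in siControl by amounts that were not called. LIN37, the subunit needed for repression by DREAM and dispensable for activation, had 85.8, 93.3, 51.5 and 82.1 normalised counts. It stood low in the siRFX7 group with DMSO and between 82.1 and 93.3 in the other groups, and the authors' deposited table gave 0.12 ± 0.17 for Nutlin-3a in siControl (DESeq2 adjusted p = 0.652).

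Both activating partners fell. MYBL2 had 14560 normalised counts in siControl with DMSO, 7419 with Nutlin-3a, 16628 in siRFX7 with DMSO and 8445 with Nutlin-3a. Its -0.97 ± 0.04 in the authors' deposited table was the lowest log2 fold change of the 10 genes in siControl (DESeq2 adjusted p = 4.46e-117). FOXM1 had 27764, 17098, 32493 and 18056 normalised counts in the same order, and the authors' deposited table gave -0.70 ± 0.04 in siControl (DESeq2 adjusted p = 2.08e-58). For both factors each siRFX7 mean lay above its siControl partner, although under Nutlin-3a this was called for MYBL2 only.

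Per kb of exon, the activating partners were the most abundant members and LIN37 the least. The level of LIN37 per kb is uncertain, because 26.7% of its exonic bases are shared with another gene model on the same strand and 41.8% with an antisense model. In siControl with DMSO the levels per kb were 5667 for FOXM1, 5243 for MYBL2, 508 for RBBP4, 370.2 for RB1, 329 for LIN52, 302 for RBL2, 251 for LIN9, 249 for LIN54, 210.0 for RBL1 and 30.4 for LIN37. LIN9 and LIN54 are close neighbours in this order, and since levels carry no error, no test of neighbours was made. With Nutlin-3a in siControl, RBL2 stood at 352 per kb, above RB1 at 318 and just under RBBP4 at 364. RBL2 was thus 6th with DMSO and 4th with Nutlin-3a, and in both conditions it lay above RBL1, which had 113 per kb with Nutlin-3a.

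**Figure D2:**
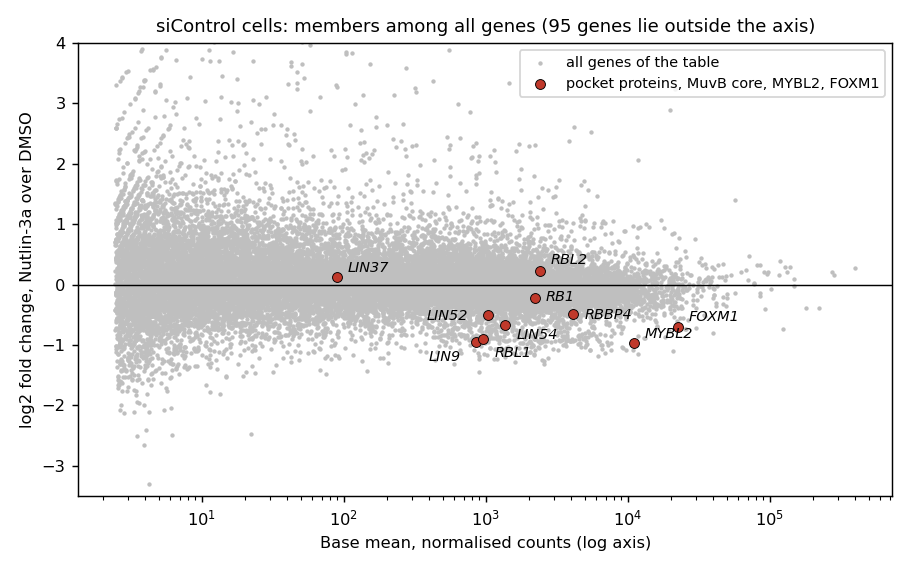
Log2 fold change with Nutlin-3a in siControl against base mean on a log axis, with 1 grey point per gene of the authors' deposited table and the 10 genes in red. MYBL2, LIN9 and RBL1 lie near -0.9 to -1.0, RBL2 lies above 0 at 0.22, and LIN37 has a base mean of 89.6.

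The promoters of these genes were searched for the letters that E2F and MuvB complexes are known to recognise. For 8 of the 10 genes RefSeq (GRCh38.p14) had a promoter, 250 bases before to 50 after the start, within 300 bases of the main start in GENCODE 29. RB1 and FOXM1 are named only. The E2F-type motif searched was TTNNCGN with each N being C or G, which makes 8 heptamers, and the CHR motif was TTTGAA or TTCGAA, both on either strand. Both motif sets were chosen after the promoters had been seen. The E2F-type motif was present in 5 of the 8 promoters and in 23.7% of 35116 RefSeq promoters of the same length. The CHR motif was present in 2 of the 8 and in 16.4% of all. In the sequences below, from 100 bases before the start to 30 after it and read 5′ to 3′ along the gene, capitals mark the matches. They stand for the members that fell and hold an E2F-type match, followed by RBL2, which rose and holds none. Since they were picked by motif and direction, they cannot show whether the motif goes with a fall. LIN9, which fell without a match in the promoter used, is not shown. MYBL2 at chr20:43667014-43667143 (plus strand), RBL1 at chr20:37095968-37096097 (minus), LIN52 at chr14:74084856-74084985 (plus), LIN54 at chr4:83010805-83010934 (minus), RBBP4 at chr1:32651108-32651237 (plus) and RBL2 at chr16:53434371-53434500 (plus) read as follows.
MYBL2: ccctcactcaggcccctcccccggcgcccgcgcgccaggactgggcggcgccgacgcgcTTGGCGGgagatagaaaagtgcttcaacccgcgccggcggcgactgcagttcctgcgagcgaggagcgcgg
RBL1: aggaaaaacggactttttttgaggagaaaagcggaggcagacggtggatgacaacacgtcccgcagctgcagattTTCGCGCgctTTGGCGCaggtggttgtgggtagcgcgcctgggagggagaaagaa
LIN52: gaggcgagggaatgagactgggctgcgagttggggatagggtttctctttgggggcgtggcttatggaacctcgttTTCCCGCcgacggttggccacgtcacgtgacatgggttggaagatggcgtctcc
LIN54: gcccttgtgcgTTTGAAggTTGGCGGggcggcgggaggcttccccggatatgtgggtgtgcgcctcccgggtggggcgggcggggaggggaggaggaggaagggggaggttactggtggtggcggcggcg
RBBP4: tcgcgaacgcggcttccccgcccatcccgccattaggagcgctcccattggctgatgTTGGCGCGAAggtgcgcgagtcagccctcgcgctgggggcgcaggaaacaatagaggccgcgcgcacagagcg
RBL2: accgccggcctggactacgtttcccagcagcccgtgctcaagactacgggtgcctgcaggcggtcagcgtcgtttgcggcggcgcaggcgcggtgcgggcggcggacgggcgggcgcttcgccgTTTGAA

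The MYBL2 promoter held TTGGCGG, beginning 41 bases before the start. RBL1 held TTCGCGC and TTGGCGC, which begin 25 and 15 bases before its start, and LIN52 held TTCCCGC beginning 24 bases before. In RBBP4 the 10 letters in capitals are TTGGCGC and, on the other strand, TTCGCGC, which overlap it. LIN54 alone held both kinds of match, with TTTGAA followed after 2 bases by TTGGCGG. RBL2 held only TTTGAA, which begins 24 bases past its start. The promoter of LIN9 nearest its main start held neither motif, although LIN9 fell to 52.0% of its DMSO level; of its 3 RefSeq promoters, another held TTCCCGC and the last held TTCGAA and TTTGAA. LIN37 held neither in the promoter used, and its other promoter held TTTGAA. The GC content of the 8 promoters ran from 51.3% to 75.3%, against a median of 58.7% over all promoters. A match describes letters and does not show that a factor was bound.

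With Nutlin-3a in siRFX7 cells the same 8 genes fell and RBL2 and LIN37 rose, in a table where 20.3% of all genes were called lower and 18.7% higher, or 31.5% and 24.8% from a base mean of 100 upwards. The median of the 10 genes was -0.62, against 0.01 over all genes. The fold changes of the authors' deposited table were -0.92 ± 0.06 (SE) for RBL1, -0.99 ± 0.07 for LIN9, -0.98 ± 0.04 for MYBL2 and -0.85 ± 0.03 for FOXM1. The shallower falls there were -0.70 ± 0.06 for LIN54, -0.54 ± 0.07 for LIN52, -0.47 ± 0.04 for RBBP4 and -0.19 ± 0.05 for RB1 in the authors' deposited table. RBL2 rose by 0.13 ± 0.05 in the authors' deposited table (DESeq2 adjusted p = 0.0331), a call that is lost at an adjusted p under 0.01. The rise of LIN37, 0.67 ± 0.21 in the authors' deposited table (DESeq2 adjusted p = 0.00539), started from the low siRFX7 level with DMSO.

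**Figure D3:**
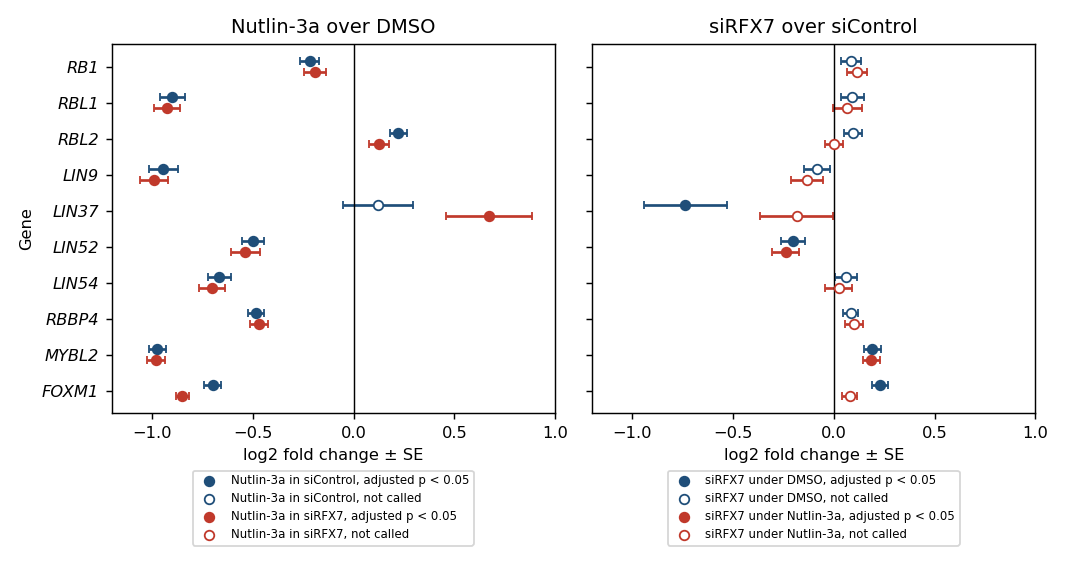
The authors' log2 fold changes with their SE for the 10 genes, with Nutlin-3a over DMSO on the left and siRFX7 over siControl on the right; filled points have an adjusted p under 0.05. The left panel runs from -0.99 to 0.67, and in the right panel all points but that of LIN37 under DMSO lie within 0.25 of 0.

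The difference between these responses, siRFX7 minus siControl, was tested directly, since the tables compared share no library. None of the 10 genes was called at an adjusted p under 0.05 over 21339 genes, where 0.937% of all genes were called. At an unadjusted p under 0.05, 2 of 10 passed, LIN37 and FOXM1, against 6.32% of all genes. For FOXM1 the difference was -0.15 ± 0.05 (SE), with a 95% interval from -0.26 to -0.04, the deeper fall being in siRFX7. Its two-sided normal p from the DESeq2 values of all genes was 0.00557, and 0.278 after adjustment. For LIN37 the difference was 0.55 ± 0.27, with a 95% interval from 0.01 to 1.09 and an adjusted value of 0.770 over all genes. The response of RBL2 differed by -0.10 ± 0.07, with an interval from -0.22 to 0.03. For MYBL2 the interval ran from -0.12 to 0.11, for RBBP4 from -0.10 to 0.13, for RB1 from -0.11 to 0.17 and for LIN54 from -0.21 to 0.13. LIN9 had the widest interval of the other genes, -0.25 to 0.15, followed by LIN52 at -0.22 to 0.14 and RBL1 at -0.20 to 0.15. For these 8 genes a difference beyond 0.25 on the log2 scale lies outside the interval, and the narrower intervals of MYBL2 and RBBP4 leave out differences beyond 0.13.

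With the siRNA against RFX7, 4 of the 10 genes were called under DMSO, against 37.4% of all genes, and 2 under Nutlin-3a, against 32.6%. From a base mean of 100 upwards, 3 and 2 members were called, against 52.2% and 47.9% of all genes. Under DMSO, LIN37 and LIN52 fell and MYBL2 and FOXM1 rose, that is 2 of 10 in each direction, in a table where 17.5% of all genes were called lower and 19.9% higher. Where the base mean reached 100 or more, those shares were 22.6% and 27.1%. In the authors' deposited table FOXM1 rose by 0.23 ± 0.04 (SE) on the log2 scale (DESeq2 adjusted p = 1.33e-07) and MYBL2 by 0.19 ± 0.04 (DESeq2 adjusted p = 5.76e-05). LIN52 fell by 0.20 ± 0.06 in the authors' deposited table (DESeq2 adjusted p = 0.00255), and LIN37 fell by 0.74 ± 0.21 (DESeq2 adjusted p = 0.00155). Except for LIN37, whose base mean stayed under 100, these changes were smaller than 0.25. The 3 pocket proteins had nearly equal values that did not pass the test, 0.09 ± 0.05 for RB1, 0.09 ± 0.06 for RBL1 and 0.09 ± 0.05 for RBL2 in the authors' deposited table. LIN9 had -0.08 ± 0.07, LIN54 had 0.06 ± 0.05 and RBBP4 had 0.08 ± 0.04 in the authors' deposited table, none of them called.

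Under Nutlin-3a, LIN52 fell and MYBL2 rose, 1 of 10 in each direction, where 15.4% of all genes were called lower and 17.2% higher, or 20.6% and 24.6% from a base mean of 100 upwards. By the authors' deposited table the change of LIN52 was -0.24 ± 0.07 (SE; DESeq2 adjusted p = 0.00213) and that of MYBL2 was 0.19 ± 0.04 (DESeq2 adjusted p = 5.39e-05). Both genes thus moved the same way under DMSO and under Nutlin-3a. FOXM1 had 0.08 ± 0.04 in the authors' deposited table (DESeq2 adjusted p = 0.0905), and the change of its siRFX7 effect between treatments is the same difference of -0.15 that was tested above. For LIN37 the authors' deposited table gave -0.19 ± 0.18 (DESeq2 adjusted p = 0.477). The other 6 genes lay between -0.13 for LIN9 and 0.12 for RB1 in the authors' deposited table, and none was called. Markers of epithelial cells moved with siRFX7: by the authors' deposited tables CDH1 stood at 180% of its siControl level under DMSO and 215% under Nutlin-3a, and EPCAM at 145% and 133%. Their base means in the siControl comparison were 121 and 191. The leukocyte marker PTPRC had a base mean of 5.21 in siControl. The part of these markers in the results was not tested.

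The value of LIN37 is uncertain because of the shared exons given above. In GENCODE 29 on GRCh38, LIN37 (ENSG00000267796, chr19:35748361-35754519, plus strand) has 2820 exonic bases. Of these, 26.7% are shared with the model AD000671.1 on the same strand and 41.8% with an antisense model. Reads there can match more than 1 gene, and how such reads were counted is not given in the sources used here. Exons on the opposite strand also cover 18.2% of those of RBL2 (ENSG00000103479, chr16:53433977-53491649, plus strand), from AKTIP and a second model. The share was 18.0% for RBBP4 (ENSG00000162521, chr1:32651142-32686211, plus strand), from SYNC, and 15.9% for FOXM1 (ENSG00000111206, chr12:2857681-2877155, minus strand), from ITFG2. For RBL1 (ENSG00000080839, chr20:36996349-37095995, minus strand) it was 3.54%. The libraries were made with a stranded kit, and whether strand was used in counting is not given in the sources used here. No exonic base was shared for RB1 (ENSG00000139687, chr13:48303726-48599436, plus strand), LIN9 (ENSG00000183814, chr1:226231149-226309869, minus strand) or LIN52 (ENSG00000205659, chr14:74084796-74201235, plus strand). The same held for LIN54 (ENSG00000189308, chr4:82909973-83012926, minus strand) and MYBL2 (ENSG00000101057, chr20:43667019-43716496, plus strand).

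Around these genes, the other parts of the pathway were counted on lists. The shares of all genes to set beside these counts are 19.6% lower and 18.3% higher with Nutlin-3a in siControl, 17.5% and 19.9% with siRFX7 under DMSO, and 15.4% and 17.2% with siRFX7 under Nutlin-3a. They are 31.6% and 24.7%, 22.6% and 27.1%, and 20.6% and 24.6% where the base mean reached 100 or more. Of 5 DREAM partners, namely E2F4, E2F5, TFDP1, TFDP2 and the assembly kinase DYRK1A, 3 fell and none rose with Nutlin-3a in siControl, with a median of -0.18. TFDP1, the DP subunit that pairs with E2Fs, had -0.50 ± 0.04 (SE) and DYRK1A had -0.32 ± 0.06 in the authors' deposited table. With siRFX7 under DMSO, TFDP1 rose by 0.30 ± 0.04 and E2F4, the repressor E2F of DREAM, by 0.21 ± 0.05 in the authors' deposited table. Under Nutlin-3a both rose again, by 0.27 ± 0.04 and 0.20 ± 0.04 in the authors' deposited table, and none of the 5 fell in either siRFX7 comparison. The relatives RBBP7, MYB and MYBL1 all fell with Nutlin-3a, with -0.73 ± 0.06 for MYBL1 and -0.48 ± 0.04 for RBBP7 in siControl (the authors' deposited table). The value of RBBP7, the close homologue of RBBP4, was nearly that of RBBP4 itself.

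Of 12 cyclins, kinases and inhibitors that set the phosphorylation of pocket proteins, 8 fell and 3 rose with Nutlin-3a in siControl, with a median of -0.39. CDKN1A and CCND2, which encodes cyclin D2, rose, CCND2 by 0.95 ± 0.04 (SE) in the authors' deposited table. The inhibitor gene CDKN2C had -1.24 ± 0.05 and CCNE2, for cyclin E2, had -1.12 ± 0.09 in the authors' deposited table. With siRFX7 under DMSO 2 of these 12 genes fell and 5 rose, and under Nutlin-3a 4 fell and 3 rose. The 2 that fell under DMSO are near the share of all genes called lower there.

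The targets that these complexes switch fell almost throughout. Of 20 genes driven by E2F at the G1/S boundary, most of them for DNA replication, 19 fell and none rose with Nutlin-3a in siControl, with a median of -1.05. CDC45 and MCM2, parts of the replicative helicase, had -1.27 ± 0.05 (SE) and -1.18 ± 0.04 in the authors' deposited table. PCNA, the sliding clamp, was the 1 gene not called, at -0.04 ± 0.04 in the authors' deposited table. Of 20 mitotic genes driven through CHR elements by DREAM, MMB and FOXM1, all 20 fell, with a median of -0.84, among them the kinase TTK at -0.97 ± 0.05 and the kinesin KIF23 at -0.96 ± 0.04 in the authors' deposited table. In siRFX7 cells all 20 of each list fell with Nutlin-3a, with medians of -1.19 and -1.04. Of all genes 20.3% were called lower there, or 31.5% from a base mean of 100 upwards. Over all genes the median was 0.01 in both tables.

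With siRFX7 the counts on the target lists differed by treatment. Of the 20 mitotic genes, 2 fell and 6 rose with siRFX7 under DMSO, with a median of 0.03, whereas under Nutlin-3a 14 fell and none rose, with a median of -0.16. Of the 20 G1/S genes, 5 fell and 4 rose under DMSO, against 10 that fell and 1 that rose under Nutlin-3a. The counts under DMSO are near the 22.6% lower and 27.1% higher among all genes of such base means, except for the 2 mitotic genes that fell, which are fewer. The difference of the Nutlin-3a responses was called for 9 of the 20 mitotic genes and 2 of the 20 G1/S genes, all lower in siRFX7 than in siControl, and for none of the 10 complex genes. Of all genes 0.937% were called, or 1.74% from a base mean of 100 upwards. The median difference was -0.21 for the mitotic list, -0.15 for the G1/S list and -0.03 for the 10 genes, against -0.00055 over all genes. The authors' deposited tables gave PLK1, a kinase of mitotic entry, -0.94 in siControl and -1.29 in siRFX7. That difference was -0.35 ± 0.06 (two-sided normal test over DESeq2 values, adjusted p = 7.05e-06). Of the activating partners, MYBL2 had -0.97 and -0.98 and FOXM1 had -0.70 and -0.85 in the authors' deposited tables. The differences on the mitotic list ran from -0.53 to 0.02. The -0.15 of FOXM1, which was not called, lay within this range, but so did the -0.007 of MYBL2 and the values of most other members. The range therefore does not set FOXM1 apart from them.

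**Figure D4:**
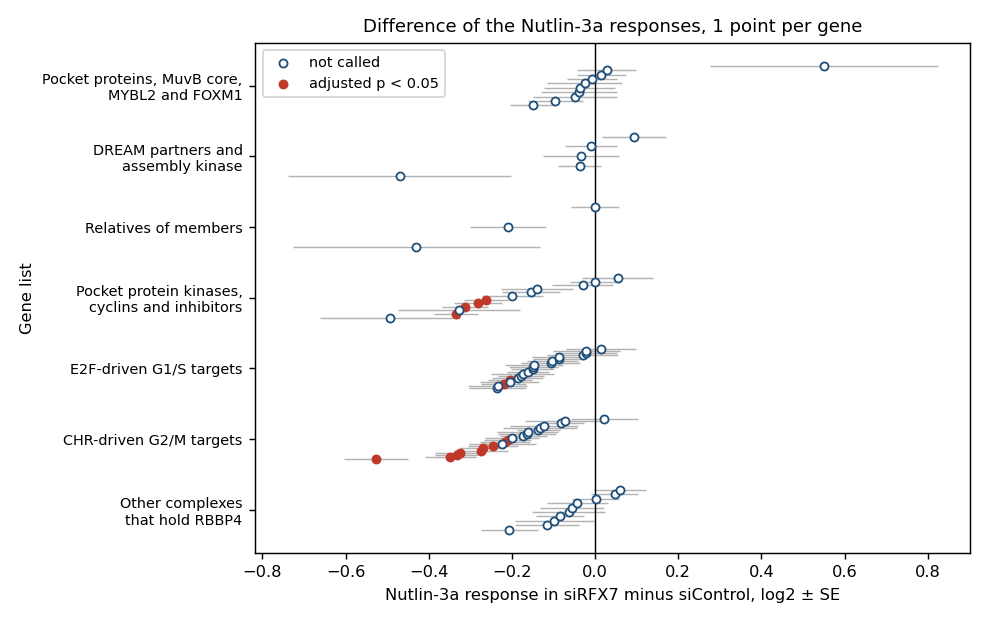
Difference of the Nutlin-3a responses, siRFX7 minus siControl on the log2 scale with its SE, for the 10 genes and each listed pathway gene, sorted within a list; filled points have an adjusted p under 0.05. Called points lie left of 0 in the lists of kinases and cyclins, G1/S genes and mitotic genes, and none of the 10 genes of the complexes is called.

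The genes of other complexes that hold RBBP4, such as chromatin assembly factor 1, PRC2 and the histone deacetylase complexes, were counted in the same way. Of these 10 genes 8 fell and 1 rose with Nutlin-3a in siControl, with a median of -0.31. CHAF1A and CHAF1B, the large and middle subunits of chromatin assembly factor 1, had -1.12 ± 0.05 (SE) and -1.05 ± 0.05, while MTA2 of the NuRD complex rose by 0.16 ± 0.04, in the authors' deposited table. RBBP4, with -0.48 ± 0.04 in the authors' deposited table, lay between these values.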

How the data were processed

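The 10 genes and the pathway lists were chosen with earlier results of these data known. Samples were grouped by their titles. The authors deposited 4 tables, each a comparison of 2 groups of 4 libraries. Per the submitters' processing notes, the tools were bcl2fastq 2.19.1.403, Trimmomatic 0.39, FastQC 0.11.9, cutadapt 2.10, SAMtools 1.10, Picard, featureCounts 1.6.5 and DESeq2 1.20.0, with hg38; the aligner and annotation are not given in the sources used here. Per the file headers, the deposited base mean is a signal, a mean of normalised read counts, and the deposited log2 fold changes come with SE. The deposited Wald score equals their ratio and was used for checks only. The deposited p-value and its Benjamini-Hochberg adjustment over a table's genes were used as they stood.

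Computed here (Python 3.11.15, pandas 2.3.3, scipy 1.17.1) were group levels, levels per kb over the exon union of GENCODE 29, which held 23362 of 23396 gene identifiers, and the difference of responses. Its SE was the root of the summed squared SEs, its p two-sided normal, adjusted over 21339 genes. The step was tested on simulated data. The simulated noise was normal and drawn with the same SEs that the test uses, so it could not show whether these SEs are right. Table directions were set from RFX7, CDKN1A and MDM2. On 19344 genes in all 4 tables, differences of effects taken in either order correlated at 0.9999. This correlation would be the same with all 4 directions reversed. Named genes were the 10 members, up to 2 lowest and 2 highest called genes per list with base mean of at least 100, and the 3 genes nearest to each of 4 members. E2F4, PCNA and PLK1 were named after their values were seen. Alternatives were a threshold of 0.01, sizes of 0.25 and 0.5, centring, and a base mean minimum of 100. For the difference of responses, the size of 0.5 was not used, and 2 further alternatives took the difference from the siRFX7 tables and divided the statistics by their robust SD.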

Additional observations from a re-analysis of the deposited data

Results flagged for a closer look

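None of the 10 genes met a criterion for a closer look. Of the 70 genes on the pathway lists, 15 did, because their Nutlin-3a responses differed between siRFX7 and siControl cells by a direct test. The criterion was a two-sided normal p over the DESeq2 values, adjusted over all genes, under 0.05. Over all genes 0.937% were called, or 1.74% from a base mean of 100 upwards. All 15 differences, siRFX7 minus siControl on the log2 scale, were negative, and the direction of the calls over all genes was not counted. Among the mitotic genes they were -0.53 for CKS2, -0.35 for PLK1, -0.33 for CDC20, -0.32 for CCNB1, -0.28 for UBE2C, -0.27 for KIF20A, -0.25 for BIRC5, -0.22 for CCNB2 and -0.21 for BUB1B. Each of these 9 fell in both cell states and fell further in siRFX7. Among the G1/S genes they were -0.22 for PCNA, the sliding clamp, and -0.20 for MCM2. Among the regulators of pocket proteins they were -0.33 for CCND1, -0.31 for CCNA2, -0.28 for CCNE1 and -0.26 for CDKN1A. CDKN1A rose less in siRFX7, by 2.98 against 3.24 in the authors' deposited tables, from a level that was 0.60 higher under DMSO. CCND1, for cyclin D1, rose by 0.26 in siControl and had -0.08, not called, in siRFX7, in the authors' deposited tables.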

How the results depend on the processing

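Requiring a size of at least 0.5 on the log2 scale left 5 of the 9 called members with Nutlin-3a in siControl (RBL1, LIN9, LIN54, MYBL2 and FOXM1) and 7 of 10 in siRFX7. At 0.25, RB1 and RBL2 lost their calls in both, and at an adjusted p under 0.01 RBL2 lost its call in siRFX7. With siRFX7 under DMSO, 1 of 4 was left at 0.25 and at 0.5, which was LIN37, and under Nutlin-3a 0 of 2 were left at either size. In that last comparison 5 of 10 had an unadjusted DESeq2 p under 0.05, a share that was not counted over all genes. Even at the adjusted threshold 32.6% of all genes passed there, or 47.9% from a base mean of 100 upwards. Keeping base means from 100 upwards removed LIN37, the member with the lowest base means. The difference of responses called 0 of 10 under each of the 6 alternatives, against 2 at an unadjusted p under 0.05 in the test on DESeq2 values. The threshold of 0.01, the size of 0.25 and the division by the robust SD could only remove calls, so they could not change this 0. The difference from the siRFX7 tables is nearly the same quantity as the main one. Over all genes the calls with a size of at least 0.5 were 2863 of 8853 for Nutlin-3a in siControl, 2820 of 8355 in siRFX7, 1638 of 7288 for siRFX7 under DMSO and 1420 of 6625 under Nutlin-3a. At 0.25 the siRFX7 counts were 4501 and 4020. For the difference, 125 of 200 calls passed 0.01, and dividing by the robust SD gave 137. Centring turned RBL2 with siRFX7 under Nutlin-3a, a value at 0 that was not called, to -0.011. No paired analysis was possible because the tables hold no value of a single library, and leaving out replicates was not run for the same reason; which library a value rests on is therefore not known here.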

Other observations

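Some genes outside the complexes had nearly the same 4 log2 fold changes as a member, among 12176 genes that have a symbol and reach a base mean of 100 in all 4 tables. The measure was the Euclidean distance over the 4 comparisons, which share libraries. Several of the distances are smaller than the SE of a single fold change, so which gene lies nearest is uncertain. Whether these genes are regulated together was not tested. Nearest to MYBL2 were FANCI at 0.08, FANCD2 at 0.09, both of the Fanconi anaemia pathway of DNA crosslink repair, and TK1, thymidine kinase, at 0.10. Nearest to FOXM1 were THBS1, which encodes the secreted protein thrombospondin 1, at 0.03, then TOPBP1 and PLCXD1, both at 0.11. Nearest to RBL1 were the mitotic kinesin gene KIF14 at 0.03, C4orf46 at 0.07 and the pseudogene RACGAP1P at 0.07. Nearest to RBL2 were UFC1 at 0.01, ARRB1 at 0.02 and the pseudogene RPL4P5 at 0.03; counts of pseudogenes are uncertain because they share sequence with their parent genes.

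The heptamer GTATCTA in the 3′ UTR, picked earlier from a scan of these same data, was present in RBL1 and in none of the other 9 members. Genes with it had a median log2 fold change of -0.14 with siRFX7 under DMSO, against 0.03 for genes without it, and -0.10 against 0.02 under Nutlin-3a. Because the heptamer was picked from these data, this gap is no separate evidence of an effect. RBL1 had 0.09 and 0.07 in the authors' deposited tables and was called in neither.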
